A study of Mus musculus with 22 samples.

Results

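The genes described here encode the semaphorins of classes 3 to 7, the plexins, the neuropilins, the netrins and netrin-Gs, the Slits and the Robo receptors. Membership was set by gene symbol, though the set was chosen with earlier results of these data known. In the mouse annotation 44 protein-coding symbols belong to these families. Of these, 43 had a row in the tables of 49671 genes for the left ventricle (LV) and 49670 genes for the right ventricle (RV). Ntn3 was not analysed here. A mean of at least 10 normalized counts over the libraries of a table was required for a test, which left 33 guidance genes in the RV and 34 in the LV, Sema6c being the additional gene.

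Most of these families were first described as cues, or receptors of cues, that steer growing axons, and most also act on blood vessels and other tissues. Secreted class 3 semaphorins bind neuropilins, which pair with plexins to signal, whereas most other semaphorins bind plexins directly and activated plexins act on small GTPases and the actin cytoskeleton. Netrins signal through Dcc, neogenin and Unc5 receptors, and Slits signal through Robo receptors. In the developing heart, Sema3c with neuropilins and Plxnd1 guides neural crest cells into the outflow tract, and Sema3a limits and patterns the sympathetic innervation of the ventricles.

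The libraries came from bulk ventricular myocardium of CD1 mice operated on postnatal day 1. In 6 mice the pulmonary artery was banded against a 30G needle (neonatal pulmonary artery banding, nPAB), which loads the RV, and 5 mice had a sham operation (Sham). Hearts were taken 7 days after surgery and the RV and LV of each of the 11 mice were sequenced separately, which gave 22 libraries of 7109050 to 11334423 reads assigned to genes. CD1 is an outbred stock, all libraries carry the same batch label, and the labels do not give litters or the sex of the animals.

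In 9 of the 11 mice the sex-linked transcripts of the RV and LV libraries belonged to 1 sex. In the libraries labelled nPAB mouse 6, the RV had female and the LV male transcripts, and in those labelled nPAB mouse 7 the RV had male and the LV female transcripts. All 4 libraries carry the nPAB label, so the pairing of RV with LV is in doubt for these mice, and results are given with and without both mice where they differ. Nppa, the natriuretic peptide gene that marks a loaded ventricle, was 3794 and 2359 in the LV of nPAB mice 6 and 7. The other banded LVs had 776 to 1219. In the RV, nPAB mouse 7 had 1324 and the other banded RVs 2886 to 7827. Whether ventricle labels were exchanged as well was not tested, and this would also touch the tests within each ventricle. The summed cardiomyocyte markers (7 genes, among them Myh6 and Tnnt2) were high in every library, with 462642 to 604326 normalized counts in the RV. Endothelial markers (7 genes) overlapped between the groups, with sums of 10426 to 11960 in the RV of Sham and 9430 to 11390 in the RV of nPAB mice. Atrial markers (4 genes) varied widely within groups, from 183 to 2501 in the RV of Sham and from 751 to 9753 in the RV of nPAB mice, and their part in the results was not tested.

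The 3 most abundant guidance transcripts in unbanded hearts were those of receptors, in the RV and in the LV. Levels between genes were compared in RPKM, reads per kilobase of merged exons scaled to the reads of the library. Plxnd1, the main semaphorin receptor of endothelial cells, stood at an RPKM of 24.6 ± 1.31 in the Sham RV and 27.2 ± 1.42 in the Sham LV (SD, n = 5). Nrp1, the co-receptor of class 3 semaphorins and of VEGF, stood at 24.5 ± 3.75 in the RV and 25.2 ± 3.12 in the LV, and its values did not differ from those of Plxnd1 beyond their spread. Plxnb2 followed with 19.8 ± 2.83 in the RV. Nrp2 (12.8 ± 1.03) and the transmembrane semaphorin Sema6d (12.7 ± 1.45) were close to each other. The netrin Ntn1 (12.0 ± 1.34) and the secreted Sema3c (11.0 ± 0.80) were the most abundant ligand transcripts after Sema6d in the Sham RV. At the other end of the tested genes, Sema3a stood at 0.788 ± 0.156 and Plxna3 at 0.286 ± 0.073 in the Sham RV.

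**Figure D1:**
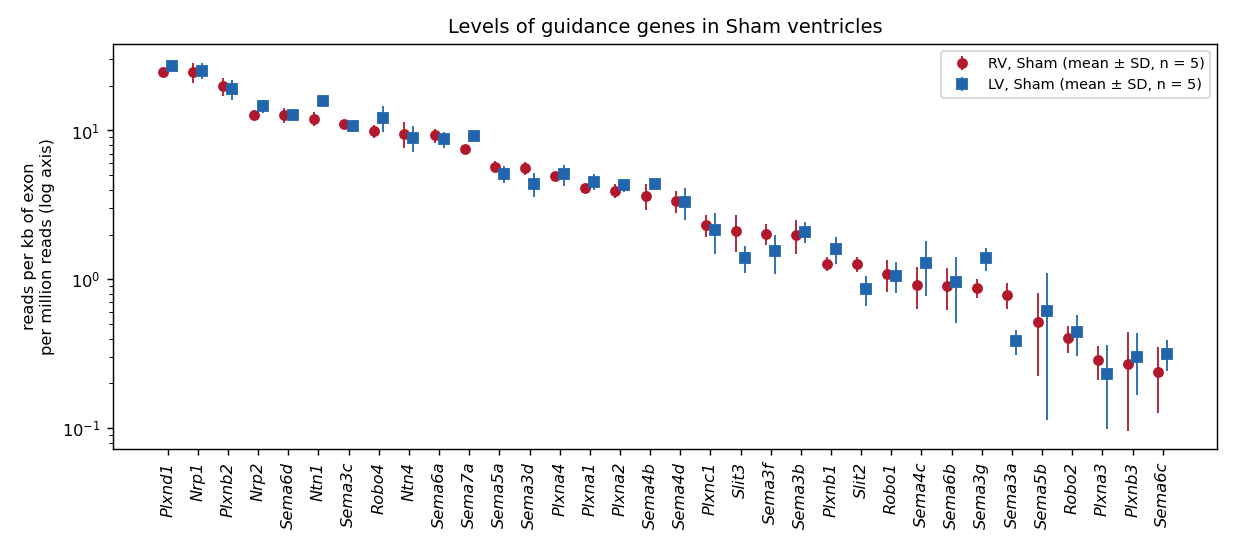
Level of each tested guidance gene in the Sham RV (circles) and Sham LV (squares), in RPKM on a log axis, as mean ± SD over 5 mice. Plxnd1 and Nrp1 were highest, near 24.5 in the RV, and Sema3a lay near the low end, with a higher value in the RV than in the LV.

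Another 9 guidance genes had a mean under 10 normalized counts in both tables and were not tested. The highest value of any library was 15.9 for Sema3e, 24.7 for Sema4a, 6.81 for Sema4f, 13.2 for Sema4g, 9.49 for Ntn5, 19.9 for Ntng1, 9.87 for Ntng2, 2.04 for Robo3 and 1.54 for Slit1.

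Banding was followed in the RV by changes of ligands and receptors in both directions. In limma fits over all 13660 genes tested in the RV, 11 of the 33 guidance genes passed a Benjamini-Hochberg adjusted p of 0.05 (33.3%), against 22.0% of all genes. Sema3b, Sema3f, Plxna4 and Robo4 rose (4 genes; 11.1% of all genes were called higher), and Sema3c, Sema3a, Plxnc1, Slit2, Ntn1, Sema5a and Nrp2 fell (7 genes; 10.8% of all genes were called lower). The groups did not overlap for 6 guidance genes (18.2%), against 12.9% of all genes tested. Over the 33 genes the median log2 fold change was -0.12 and the median absolute value 0.41, where all genes had medians of 0.00 and 0.25. Fold changes are on the log2(normalized count + 1) scale throughout, which understates the change of low genes, and in bulk tissue fewer cells of a type and less RNA per cell cannot be told apart.

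**Figure D2:**
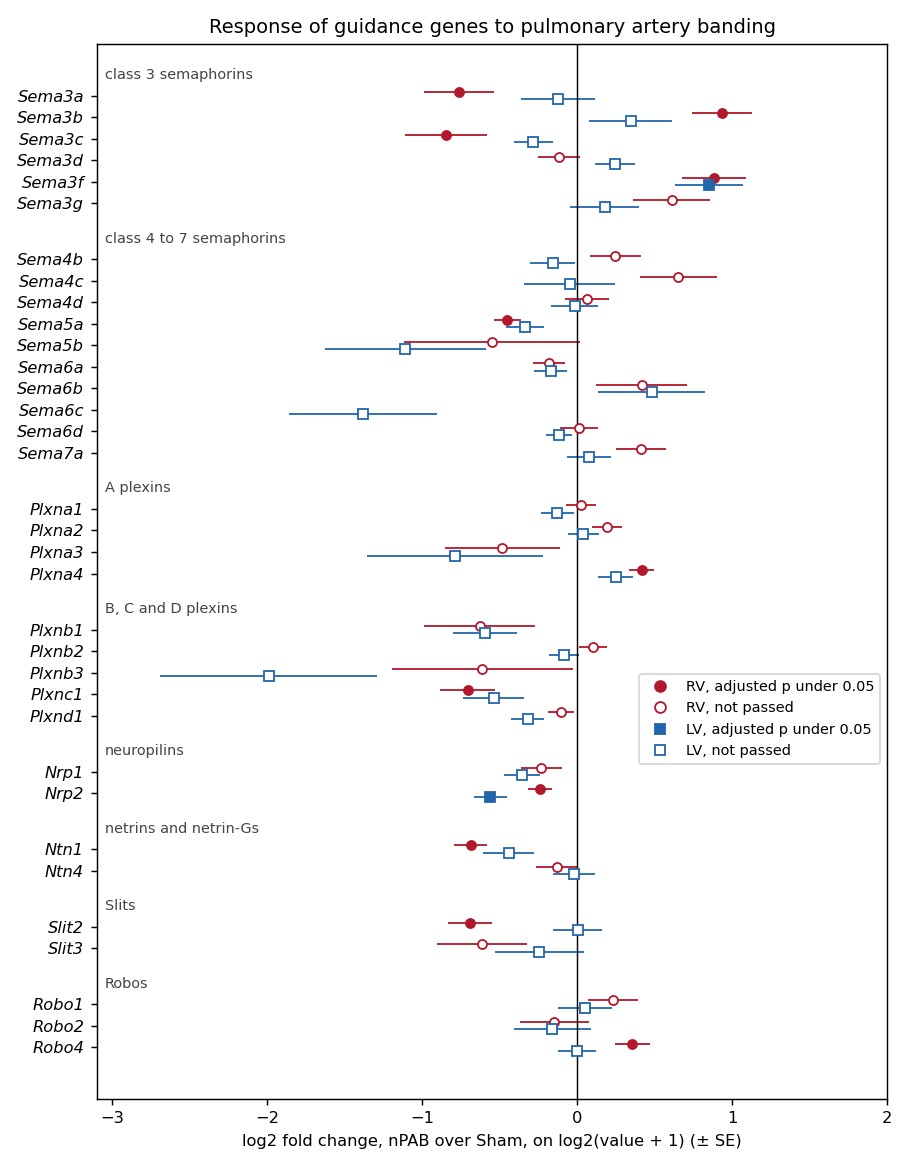
Log2 fold change of nPAB over Sham for each tested guidance gene, by family, in the RV (circles) and LV (squares), with the standard error as bars. Filled symbols mark genes with a limma adjusted p under 0.05: 11 in the RV and 2 in the LV, with Sema3f and Nrp2 filled in both.

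RefSeq promoter sequences (GRCm38.p6) were found for 36 of the 43 genes and for 7 of the 11 called genes; Ntn1, Plxna4, Sema3b and Sema3f had no entry. The bases before the start of 4 called genes with an entry are shown, as examples of windows with and without a GC box. The stretches run 5′ to 3′ and end before the first annotated exon base of the gene, and capitals mark the GC box GGGCGG on either strand. Slit2 lies at chr5:47982905-47983137 (+), Plxnc1 at chr10:94944846-94945095 (-), Sema3a at chr5:13396534-13396783 (+, before a start inside the annotated gene) and Robo4 at chr9:37401722-37401896 (+).
Slit2: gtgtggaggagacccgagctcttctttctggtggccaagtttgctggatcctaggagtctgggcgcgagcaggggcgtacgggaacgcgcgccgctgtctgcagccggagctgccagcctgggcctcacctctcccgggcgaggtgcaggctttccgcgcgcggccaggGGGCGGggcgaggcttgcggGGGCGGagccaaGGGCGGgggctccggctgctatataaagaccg
Plxnc1: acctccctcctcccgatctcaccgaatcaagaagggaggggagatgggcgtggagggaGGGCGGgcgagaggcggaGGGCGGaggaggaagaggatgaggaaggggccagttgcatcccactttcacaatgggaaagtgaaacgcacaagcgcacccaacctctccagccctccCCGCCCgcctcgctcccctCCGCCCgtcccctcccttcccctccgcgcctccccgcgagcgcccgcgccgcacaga
Sema3a: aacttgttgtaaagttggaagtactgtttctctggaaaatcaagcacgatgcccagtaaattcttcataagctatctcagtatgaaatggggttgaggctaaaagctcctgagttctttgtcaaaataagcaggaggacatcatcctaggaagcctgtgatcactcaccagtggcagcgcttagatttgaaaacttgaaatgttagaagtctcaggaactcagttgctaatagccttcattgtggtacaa
Robo4: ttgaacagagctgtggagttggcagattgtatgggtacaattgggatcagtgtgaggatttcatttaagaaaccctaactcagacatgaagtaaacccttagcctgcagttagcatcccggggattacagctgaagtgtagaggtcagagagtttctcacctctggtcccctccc
In the full window of 250 bases before the start, Slit2 had 3 GC boxes and 69.6% G and C, and Plxnc1 had 4 and 68.8%. Both genes fell in the banded RV. Sema3a fell as well, and its window had no GC box and 40.8% G and C. Robo4 rose, and its window likewise had no GC box, with 49.6% G and C. The called genes with an entry that are not shown, Nrp2, Sema5a and Sema3c, all fell. Their windows had 5, 5 and 3 GC boxes and 72.4%, 72% and 78.4% G and C. Among the called genes with an entry that fell, Sema3a alone had no GC box. GGGCGG was found on either strand in 65.3% of the 49 promoter entries of guidance genes and in 32.7% of all 32851 entries, whose median G and C content was 62.8% and 52.4%. The motifs ACGTG (16.6% of all entries), TGACTCA (4.46%), AGAACA (16.1%) and GGAATG (12.6%) were searched on both strands too. None of these was in the 4 windows, and no motif searched contains another. A match or its lack describes only these letters.

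Among the class 3 semaphorins, 4 of 6 tested genes were called in the RV (66.7%, against 22.0% of all genes), 2 higher and 2 lower. Sema3b is a secreted semaphorin that signals through neuropilins and plexins. In the RV of Sham mice its normalized counts were 62.7, 65.8, 76.2, 89.5 and 117, and in nPAB mice they ran from 118 over a median of 149 to 226. Every nPAB library lay above every Sham library, the closest pair being almost level. This was a log2 fold change of 0.93 ± 0.20 (SE; limma adjusted p = 0.00208).

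Sema3f, which repels axons and endothelial cells mainly through Nrp2, moved in the same direction in both ventricles. In the RV it stood at 71.0, 84.4, 95.1, 97.7 and 106 in Sham mice and at 117 to 299 in nPAB mice, with a median of 160. In the LV it stood at 35.5, 62.8, 77.9, 80.7 and 88.3 in Sham mice and at 96.8 to 140 in nPAB mice, with a median of 125. The groups did not overlap in either ventricle. In limma its log2 fold change was 0.88 ± 0.21 in the RV (adjusted p = 0.00458) and 0.85 ± 0.22 in the LV (0.0194). Without nPAB mice 6 and 7 the LV value was 0.83 and no longer passed (limma adjusted p = 0.0694), while the RV value of 0.80 did (0.00479).

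Sema3b and Sema3f are neighbours on chromosome 9 (Sema3b at chr9:107597674-107609229, Sema3f at chr9:107681500-107710475, GENCODE on mm10), with 72.3 kb between them. The 2 tested genes in between were Gnai2, a G protein subunit, which rose by a smaller step in the RV (log2 fold change 0.25 ± 0.06, limma adjusted p = 0.00999), and the glutamine transporter gene Slc38a3, at -0.22 ± 0.38 (0.73). Neither was called in the LV. The interval was looked at after the values of Sema3b and Sema3f were seen.

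Sema3c, the outflow tract semaphorin, was uniform in Sham and spread widely after banding. The Sham RV libraries held 639, 644, 670, 684 and 747 normalized counts, and the nPAB libraries ran from 186 over a median of 387 to 751. In 5 of the 6 nPAB libraries it lay below every Sham library, and nPAB mouse 7 lay above them all. The library of mouse 7 also had the lowest count of Nppa, the natriuretic peptide gene that marks a loaded ventricle, among the banded RVs (1324, others from 2886). It is also among the libraries whose sex-linked transcripts disagreed between RV and LV, so its label is in doubt. The banded LV libraries held 417 to 774 counts of Sema3c. Whether load or an exchanged label bears on the Sema3c of mouse 7 was not tested. The log2 fold change was -0.85 ± 0.27 (limma adjusted p = 0.0419). It was -1.05 without that mouse (0.000664) and did not pass with edgeR (-0.74, adjusted p = 0.0718). The call was also lost when any 1 of the Sham mice, or nPAB mouse 6, 8, 10 or 11, was left out.

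Sema3a, the repellent of sympathetic and sensory axons, held 64.7, 88.9, 99.8, 102 and 117 normalized counts in the RV of Sham mice. In the nPAB RV it ran from 38.1 over a median of 50.9 to 89.6. In 5 of 6 nPAB libraries it was below every Sham library, and nPAB mouse 5 fell within the Sham range. Its fold change on the log2 scale was -0.77 ± 0.23 (limma adjusted p = 0.0206), or -0.67 without nPAB mice 6 and 7, which did not pass (0.0607), and it also missed the threshold without Sham mouse 12. In the LV its counts were 38.6 to 61.4 in Sham and 31.6 to 61.2 in nPAB mice, and the difference did not pass (-0.12 ± 0.24, adjusted p = 0.798). Of the 2 sympathetic neuron markers tested in the RV, Dbh fell (-1.52 ± 0.23) and Stmn2 rose (1.51 ± 0.24), and the part of nerve fibres in the level of Sema3a was not tested.

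The remaining class 3 genes did not pass in either ventricle. Sema3d, the second most abundant of the class, had a log2 fold change of -0.12 ± 0.13 in the RV and 0.24 ± 0.13 in the LV. Sema3g, a semaphorin of arterial endothelium, had 0.61 ± 0.25 in the RV (limma adjusted p = 0.0883), with 4 of 6 nPAB libraries above all Sham libraries. Sema3a, Sema3c, Sema3d and Sema3e all lie on chromosome 5, and the called ones among them, Sema3a and Sema3c, both fell.

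Of the 9 tested semaphorins of classes 4 to 7 in the RV, which are bound to the membrane, Sema5a alone was called. It carries thrombospondin repeats and binds plexins. Its Sham RV libraries held 840, 843, 957, 963 and 1011 normalized counts, and the nPAB libraries ran from 580 over a median of 685 to 753. Every nPAB library was below every Sham library, and the log2 fold change was -0.45 ± 0.09 (limma adjusted p = 0.00107). In the LV the change was -0.33 ± 0.12 (adjusted p = 0.0927) with 4 of 6 nPAB libraries below all Sham libraries. Sema6d, the most abundant of these classes, was at 1160 ± 125 in the Sham RV and 1183 ± 234 in the nPAB RV (SD; n = 5 and 6) and did not pass. The other 7 ranged in log2 fold change from -0.55 (Sema5b) to 0.65 (Sema4c). Sema4c shares 7.27% of its exon bases with an opposite-strand transcript. Among the tested plexins, Plxna1 (10.7%), Plxnb1 (2.68%) and Plxna4 (0.78%) also share exon bases with such a transcript. The sources used here do not state whether counting used the strand.

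Among the receptors tested in the RV, 1 of 4 A plexins, 1 of 5 other plexins, 1 of 2 neuropilins and 1 of 3 Robos were called, where 22.0% of all genes were, and they moved in both directions. Plxna4, which pairs with Nrp1 to receive Sema3a and also binds Sema6 ligands, held 579, 585, 595, 603 and 648 normalized counts in the Sham RV. In the nPAB RV it ran from 734 over a median of 791 to 896, above every Sham library. This amounted to 0.42 ± 0.08 on the log2 scale (limma adjusted p = 0.00117), and in the LV to 0.25 ± 0.11 (0.187). The other A plexins did not pass, among them Plxna2, with 583 ± 66.1 in the Sham RV and 666 ± 60.5 in the nPAB RV.

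Plxnc1, the receptor of Sema7a, fell in the RV. Sham libraries held 134, 157, 157, 188 and 203 normalized counts, and nPAB libraries ran from 65.7 over a median of 105 to 123. No nPAB library reached the lowest Sham library, and the log2 fold change was -0.71 ± 0.18 (limma adjusted p = 0.0075). In the LV the value was -0.54 ± 0.20 and did not pass (adjusted p = 0.0953), though it did with DESeq2 (0.0424). Its ligand gene Sema7a had a log2 fold change of 0.41 ± 0.16 in the RV (limma adjusted p = 0.0798), with 5 of 6 nPAB libraries above all Sham libraries and 1 below them.

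Plxnd1, the most abundant guidance gene per kilobase, did not pass in either ventricle. In the RV the Sham libraries held 1406, 1506, 1535, 1648 and 1648 normalized counts, and nPAB libraries ran from 1186 over a median of 1444 to 1622, so the groups overlapped broadly. Its log2 fold change there was -0.11 ± 0.08 (limma adjusted p = 0.411). In the LV the Sham libraries held 1556, 1695, 1747, 1785 and 1788 and the nPAB libraries ran from 1039 over 1424 to 1761. There 5 of 6 nPAB libraries lay below all Sham libraries, and the log2 fold change of -0.32 ± 0.11 missed the threshold (adjusted p = 0.0702). It passed when nPAB mouse 10, the highest banded LV library, was left out. Plxnb2 was at 1318 ± 190 in the Sham RV and 1406 ± 104 in the nPAB RV and did not pass either.

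Nrp2, the neuropilin of veins and lymphatic vessels, fell in both ventricles, with the larger fold change in the LV. In the LV the Sham libraries held 1305, 1413, 1462, 1591 and 1692 normalized counts, and the nPAB libraries ran from 871 over a median of 935 to 1343. In the RV the Sham libraries held 1201, 1230, 1313, 1340 and 1445, and the nPAB libraries ran from 1020 over 1084 to 1256. In each ventricle 5 of 6 nPAB libraries were below all Sham libraries and 1 was within their range. The log2 fold change was -0.56 ± 0.11 in the LV (limma adjusted p = 0.00277) and -0.24 ± 0.08 in the RV (0.0327). The RV call was lost in 10 of 21 alternative analyses, 7 of which left out 1 mouse (Sham 10, 11 or 13, or nPAB 5, 6, 8 or 10). The difference between the ventricles, RV minus LV within mice, was 0.32 ± 0.15 and did not pass (adjusted p = 0.463). Nrp1 had -0.23 ± 0.13 in the RV (0.242) and -0.36 ± 0.12 in the LV (0.0621).

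The sum of 4 lymphatic markers moved with Nrp2: it was 2588 to 3384 in the Sham RV against 1451 to 1833 in the nPAB RV, and 2611 to 3284 against 1464 to 2220 in the LV. This sum was carried by Prox1, which fell in both ventricles (-1.34 ± 0.10 and -1.18 ± 0.15). No other marker was called lower: Flt4 rose in the RV (0.46 ± 0.12), and Lyve1 and Pdpn did not pass in either ventricle. The part of lymphatic vessels in the level of Nrp2 was not tested.

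Ntn1, the founding netrin, fell in the RV with the smallest adjusted p of all guidance genes. The Sham RV libraries held 541, 647, 652, 699 and 709 normalized counts, and the nPAB libraries ran from 334 over a median of 395 to 490. No nPAB library reached the lowest Sham library, and the log2 fold change was -0.69 ± 0.11 (limma adjusted p = 0.000194), a fold of 0.621. In the LV the Sham libraries held 748, 859, 870, 875 and 890 and the nPAB libraries 350 to 796, with a median of 669. There 5 of 6 nPAB libraries were below all Sham libraries, and the log2 fold change of -0.44 ± 0.16 did not pass (adjusted p = 0.109). The lowest, 350, was nPAB mouse 6, whose label is in doubt, and the others held 631 to 796. When 1 mouse was left out the LV value ran from -0.51 to -0.28, and it passed in 0 of 21 alternatives. Ntn4, a netrin of basement membranes, was at 306 ± 62.9 in the Sham RV and 276 ± 35.4 in the nPAB RV and did not pass. The sum of 7 mural cell markers in the RV was 32296 to 38147 in Sham and 26791 to 32345 in nPAB mice. Its fall lay largely in Abcc9, the 1 marker called lower, which went from 11235 ± 839 to 6361 ± 1175. Cspg4 was called higher and the other 5 did not pass. Among these, Rgs5 had means of 15975 in Sham and 17987 in nPAB mice, and Acta2 4898 and 3378. The part of mural cells in the fall of Ntn1 was not tested.

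Slit2, a secreted ligand of Robo receptors, held 225, 265, 284, 304 and 310 normalized counts in the Sham RV. In the nPAB RV it ran from 136 over a median of 166 to 231, with 5 of 6 libraries below every Sham library and nPAB mouse 5 just above the lowest. In log2 terms it fell by 0.69 ± 0.14 (limma adjusted p = 0.0017). In the LV the Sham libraries held 157, 161, 161, 209 and 252 and the nPAB libraries 139 to 218, with a log2 fold change of 0.00 ± 0.16 (0.997). Slit3 had a fold change of similar size in the RV with a larger error (-0.61 ± 0.29, adjusted p = 0.148). The sum of 6 fibroblast markers in the RV was 33549 to 43241 in Sham and 24467 to 37648 in nPAB mice, with Pdgfra called lower (-0.45 ± 0.14) and the other 5 not passing, and its part in the fall of Slit2 was not tested.

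Among the receptors of Slits, Robo4, which is largely restricted to endothelium, rose in the RV. It was 383 to 515 normalized counts in Sham and 497 to 704 in nPAB mice, with 4 of 6 nPAB libraries above all Sham libraries. The log2 fold change was 0.35 ± 0.11 (limma adjusted p = 0.0294), and 0.29 without nPAB mice 6 and 7, which did not pass (0.102). Leaving out Sham mouse 9 or 11, or nPAB mouse 7 or 8, also lost the call. Of the 7 endothelial markers in the RV none was called higher and Tek was called lower (-0.68 ± 0.17). Robo1, a receptor of wider expression, was at 155 ± 36.2 in the Sham RV and 180 ± 30.5 in the nPAB RV and did not pass.

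**Figure D3:**
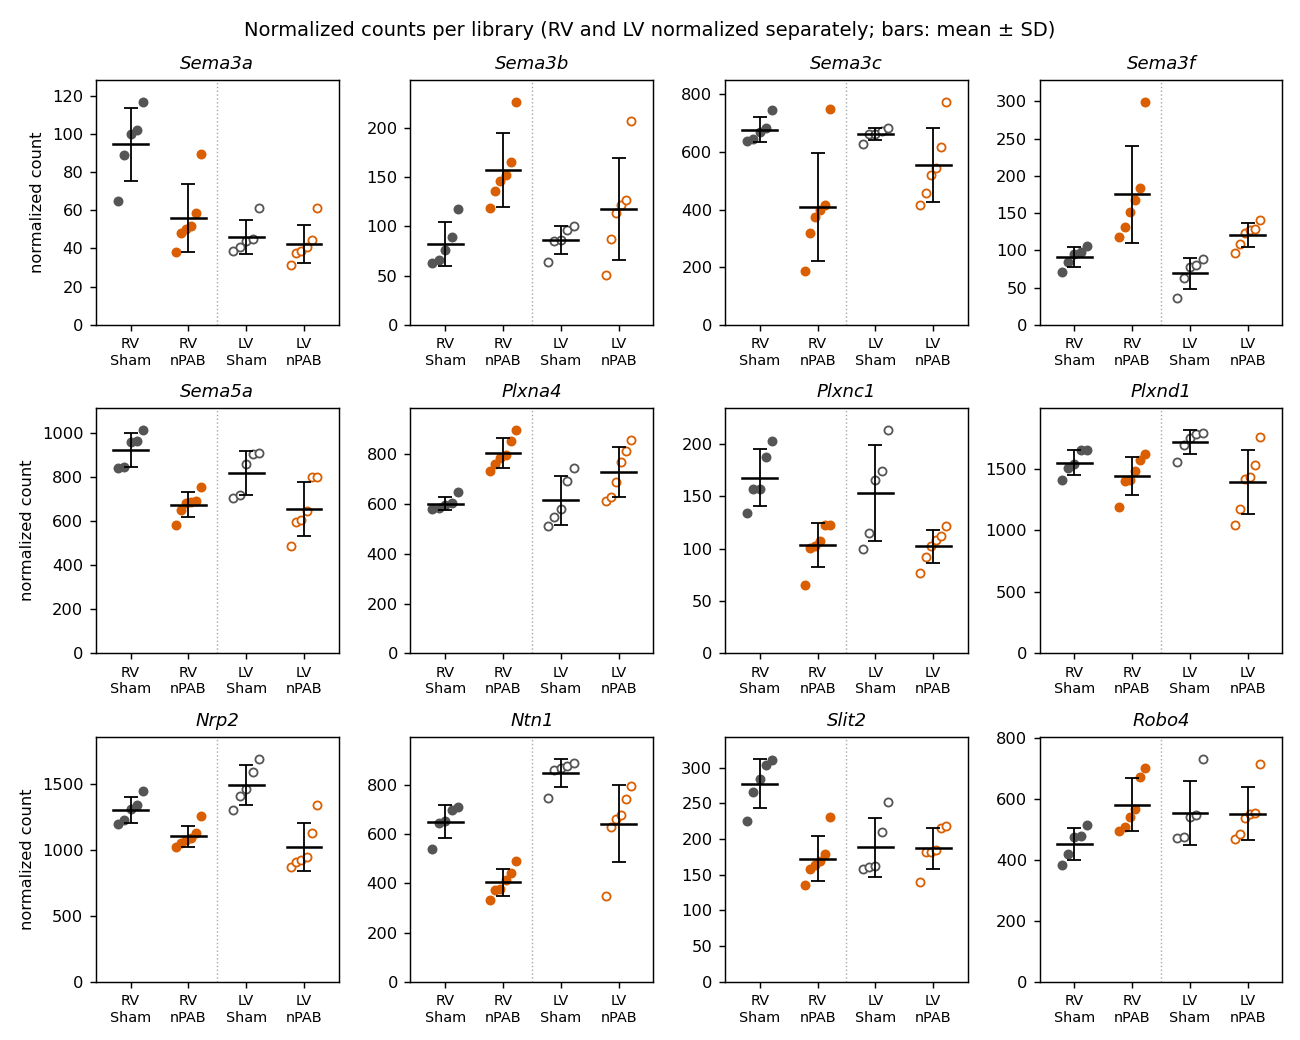
Normalized count per library for the 11 called guidance genes and Plxnd1, in the RV (filled) and LV (open) of Sham (grey) and nPAB (orange) mice, with mean ± SD as bars; the RV and LV were normalized separately. Sema3c in the banded RV shows 1 library at 751 and 5 from 186 to 417, and Ntn1, Plxna4, Plxnc1, Sema3b, Sema3f and Sema5a show no overlap between the groups in the RV.

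In the LV, which the band does not load directly, 2 of 34 tested guidance genes were called (5.88%), against 9.31% of the 13528 genes tested: Sema3f rose (1 gene; 4.76% of all genes were called higher) and Nrp2 fell (1 gene; 4.55% were called lower). Sema3f was also the only guidance gene whose LV groups did not overlap (2.94%, against 6.53% of all genes). The median log2 fold change was -0.13 and the median absolute value 0.24, where all genes had -0.01 and 0.21. The count that fell was sensitive to single mice. It was 6 without nPAB mouse 10 (Nrp2, Plxnb1, Plxnd1, Sema3c, Sema5a and Sema6c), 3 without nPAB mouse 11 or Sham mouse 13, and 2 without Sham mouse 9. Over all genes, in both directions, 1184, 1290, 1070 and 901 were called in these 4 fits, and 1260 with all mice. Sema6c, tested in the LV alone, was at 16.2 ± 3.77 in Sham and 6.19 ± 3.91 in nPAB mice, which did not pass (limma adjusted p = 0.0757).

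Whether the response differed between the ventricles was tested on the RV minus LV difference of each mouse. With limma, 0 of 33 guidance genes passed (4 had an unadjusted p under 0.05), against 1 of all 13364 genes (0.00748%). edgeR called 0 guidance genes and 137 genes in all. DESeq2 called 1 guidance gene, Slit2 (-0.70, adjusted p = 0.0291), and 251 genes in all. In the limma fit Slit2 had a difference of -0.69 ± 0.19 (adjusted p = 0.266), Sema3a -0.64 ± 0.26 (0.411), Sema3d -0.36 ± 0.12 (0.326) and Sema4c 0.70 ± 0.26 (0.356). For Sema3f the difference was 0.03 ± 0.34 (0.985). The genes called in the RV and not in the LV are therefore not shown to respond differently in the ventricles, apart from Slit2 by DESeq2.

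In Sham hearts some guidance genes had unequal levels in the ventricles. The RV and LV tables were normalized separately, so counts scaled to the reads of each library (CPM) were used and no test was made. The RV was higher than the LV in all 5 Sham mice for Sema3a (mean log2 ratio 1.02 ± 0.38 SD), Slit2 (0.57 ± 0.29) and Sema3d (0.35 ± 0.13). It was lower in all 5 for Sema3g (-0.63 ± 0.32), Ntn1 (-0.39 ± 0.10), Sema7a (-0.30 ± 0.13), Sema4b (-0.29 ± 0.29), Nrp2 (-0.19 ± 0.15) and Plxnd1 (-0.15 ± 0.08). Such agreement of all 5 mice was seen for 27.3% of the guidance genes and 11.5% of all 13364 genes. RV and LV levels of Sham mice did not overlap for Sema3a, Sema3g, Ntn1 and Sema7a (12.1%, against 1.92% of all genes).

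In nPAB mice the mean log2 ratio of RV over LV was 0.34 for Sema3a, -0.15 for Slit2 and -0.67 for Ntn1. Sema3a was still higher in the RV in all 6 nPAB mice, and Slit2 in 2 of 6. These ratios rest on the RV and LV libraries being from 1 mouse, which is in doubt for nPAB mice 6 and 7. Without these mice the RV minus LV difference of the response was -0.65 for Sema3a and -0.63 for Slit2, and neither passed (limma adjusted p = 0.393 and 0.307).

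**Figure D4:**
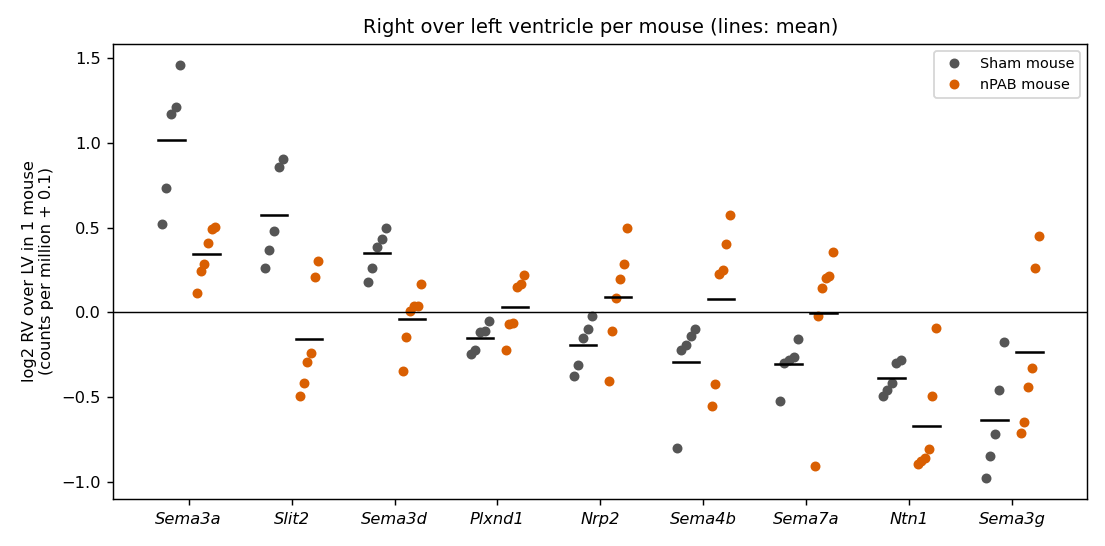
Log2 ratio of RV over LV in CPM for each mouse, for the 9 guidance genes with the same direction in all 5 Sham mice; grey points are Sham mice, orange points nPAB mice and lines are means. Sema3a lay above 0 in every mouse, and for Slit2 and Sema3d the Sham mice lay above 0 while nPAB mice lay on both sides.

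The partners and effectors of these receptors were read from 3 lists, which were chosen with earlier results of these data known. Of 13 tested partners of netrins and Slits, 2 rose and 4 fell in the RV (46.2% called, against 22.0% of all genes), and the median log2 fold change was -0.44. Rgma, a ligand of the netrin receptor neogenin, fell by 1.05 on the log2 scale, from 336 ± 54.2 to 163 ± 31.3 normalized counts (limma adjusted p = 8e-05). Neo1, which encodes neogenin, fell from 1662 ± 190 to 1169 ± 90.7, and Flrt2, a ligand of Unc5 receptors, from 427 ± 72.3 to 245 ± 49.4. Gpc1, a heparan sulfate proteoglycan that binds Slits, rose from 226 ± 42.8 to 343 ± 30.0. In the LV 3 of 13 were called (23.1%, against 9.31% of all genes): Gpc1 rose (0.75 ± 0.15), and Neo1 (-0.36 ± 0.09) and Flrt2 (-0.53 ± 0.14) fell. Srgap2, a Robo effector, did not pass (-0.30 ± 0.14).

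Of 16 tested semaphorin co-receptors and plexin partners, 5 rose and 2 fell in the RV (43.8% called, against 22.0% of all genes), with a median log2 fold change of 0.38. Itgb1, the integrin β1 subunit, rose from 7862 ± 163 to 11547 ± 1628 normalized counts and Itga1, an α subunit that pairs with it, from 1299 ± 165 to 1837 ± 224. Flt1, a VEGF receptor, rose from 664 ± 91.5 to 1138 ± 222, and Erbb2, a plexin B partner and co-receptor of neuregulin signalling, fell from 279 ± 40.4 to 177 ± 19.0. In the LV 3 of 16 were called (18.8%, against 9.31% of all genes): Flt1 (0.54 ± 0.11) and Itgb1 (0.31 ± 0.07) rose and Erbb2 fell (-0.72 ± 0.15). Mst1r did not pass (-1.18 ± 0.41).

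Of 32 tested intracellular effectors, 10 rose and 0 fell in the RV (31.2% called), against 22.0% of all genes (11.1% higher and 10.8% lower). Their median change was 0.21 on the log2 scale, where that of all genes was 0.00. Dpysl3, a collapsin response mediator protein, rose from 2694 ± 244 to 4667 ± 708 normalized counts. Enah, an actin elongation factor of the Ena/VASP family, rose from 2758 ± 118 to 5530 ± 1131, and Rras, the GTPase that plexins inactivate, from 181 ± 33.7 to 386 ± 66.8. Cfl1, the actin severing protein cofilin, rose from 2866 ± 267 to 3944 ± 128. In the LV 3 rose (9.38% called, near the 9.31% of all genes): Mical2 (0.49 ± 0.09), an oxidase that disassembles actin, Rras (0.65 ± 0.14) and Enah (0.40 ± 0.09), and Dpysl3 did not pass (0.24 ± 0.08). Several of these genes serve the cytoskeleton of any cell, so their counts are not specific to guidance receptors.

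**Figure D5:**
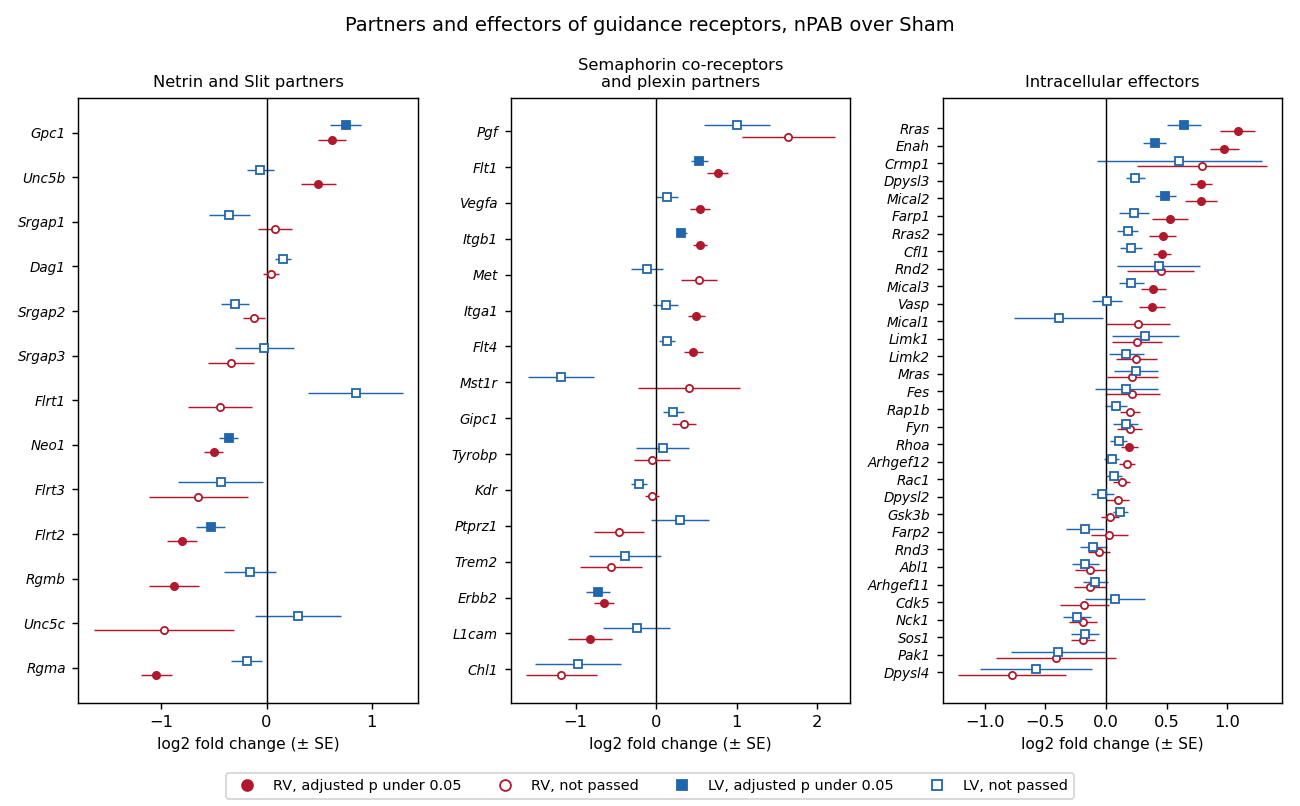
Log2 fold change of nPAB over Sham, with the standard error as bars, for the tested genes of 3 lists in the RV (circles) and LV (squares), filled where the limma adjusted p was under 0.05. Filled RV symbols lie on both sides of 0 for the netrin and Slit partners, and on the higher side alone for the 10 called effectors.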

How the data were processed

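Gene-level values were deposited by the authors as 2 tables of DESeq2-normalized counts, 1 for each ventricle. Per the submitters' processing notes, cutadapt, featureCounts and DESeq2 were used with the mm10 build, and versions are not given. These values are a signal in units of a deposited count divided by a library's size factor. Whole reads were recovered from the deposited values (100% of values whole within 0.001) and served for depth, CPM (pseudocount 0.1 for ratios) and the edgeR and DESeq2 alternatives. Genes were named by GENCODE vM21. The main test was limma 3.58.1 (trend and robust options, R 4.3.3) on log2(deposited value + 1), with a minimum mean of 10 per gene. Tests were two-sided, with Benjamini-Hochberg adjustment over all genes tested and a threshold of 0.05. It ran within each table, and on the RV minus LV difference of each mouse. Alternatives used edgeR 4.0.16, DESeq2 1.42.0, another pseudocount, filter, scaling or variance model, and left out mice. On recovered reads edgeR called 2997 genes in the RV and 1243 in the LV. The procedure was tested on simulated data.

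RV and LV libraries were paired by the mouse number in the titles. Deviations from the group means correlated over 12899 genes by 0.132 to 0.383 in 9 mice, by 0.172 in nPAB mouse 6 and by 0.0548 in nPAB mouse 7. Every pair of libraries within a group differed by more than counting noise: the chi-square divided by its degrees of freedom was at least 7.37.

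The genes, lists and tests were chosen with earlier results of these data known. Values are named for every called guidance gene, for Sema3a and Plxnd1, for the 2 genes of each family with the highest mean, and for up to 4 genes of smallest p in each partner list and ventricle. For the 10 called genes with the largest fold change and for Sema3a and Plxnd1, every Sham library of the RV is printed, and the lowest, median and highest of its 6 nPAB libraries.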

Additional observations from a re-analysis of the deposited data

Results flagged for a closer look

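In 11 of 134 groups of libraries of tested guidance genes, 1 library stood apart from the rest of its group by Dixon's criterion at 95%, which chance reaches in about 1 in 20 groups. Among the genes called after banding these were Sema3f in the RV of nPAB mouse 6 (299 normalized counts, others 117 to 184), Ntn1 in the LV of Sham mouse 13 (748, others 859 to 890) and in the LV of nPAB mouse 6 (350, others 631 to 796), Robo4 in the LV of nPAB mouse 8 (716, others 469 to 554) and Sema3a in the LV of Sham mouse 13 (61.4, others 38.6 to 44.7). Without nPAB mouse 6 the RV log2 fold change of Sema3f was 0.72 and passed (limma adjusted p = 0.00783).

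The other libraries that stood apart belonged to genes that were not called. Sema4b was 114 in the RV of Sham mouse 11 (others from 180), Sema6b was 48.6 in the RV of Sham mouse 12 (others up to 28.5) and Sema5b was 73.1 in the RV of nPAB mouse 8 (others up to 24.0). Sema6a was 781 in the RV of nPAB mouse 11 (others up to 638), Plxna2 was 509 in the LV of nPAB mouse 11 (others from 667) and Plxnb3 was 24.6 in the LV of nPAB mouse 8 (others up to 5.18).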

How the results depend on the processing

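Ntn1, Plxna4, Plxnc1, Sema3b, Sema3f, Sema5a and Slit2 kept their RV call in 20 of 21 alternatives, all but the replicate block; Sema3a kept it in 18, Robo4 in 13, Nrp2 in 11 and Sema3c in 8. In the LV, Nrp2 kept its call in 20 and Sema3f in 19. No called gene changed direction; among uncalled ones the sign differed in 81 of 1772 values. With the title number as a replicate block, which joins different mice that share numbers 10 and 11 and is no pairing, 0 guidance genes rose and 0 fell in the RV (262 genes called in all) and 0 and 0 in the LV (29 in all). Without nPAB mice 6 and 7, 0 rose in the LV, and 668 genes were called in the LV and 29 for RV minus LV. Limma without trend gave 2 guidance genes that fell in the LV, and 739 genes in all. DESeq2 gave 4 that fell in the LV (1680 genes called in all) and 1 for RV minus LV. For RV minus LV, the 1 gene called in all became 0 with a pseudocount of 0.5, 35 with a mean of at least 50, 137 with edgeR, 251 with DESeq2 and 5 with no replicate block. Leaving out 1 mouse gave 1 to 6 guidance genes that fell in the LV (841 to 1290 genes called in all), and 0 to 20 genes called for RV minus LV. TMM scaling moved the LV calls from 644 higher and 616 lower to 707 and 544. Genes with under 10 normalized counts were below what this depth allows to compare.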
